A study of Mus musculus with 7 samples.

Results

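The 29 genes described here make cholesterol or regulate and move sterols. Of these, 18 are enzymes of synthesis and 5 encode or control the SREBP transcription factors. Another 5 act in efflux and trafficking, and the last is the hydroxylase that clears cholesterol from neurons. The genes were chosen by gene symbol, and all 29 were found among the 48321 genes counted in each library. The list leaves out some enzymes of the pathway, so counts refer to these 29 only. RNA came from the hand-dissected ventrolateral part of the ventromedial hypothalamus of ovariectomized female mice, which lack the ovarian source of estrogen. In the treated group, 4 mice had received 1 µg of estradiol benzoate (EB), a slowly released ester of estradiol, under the skin. In the control group, 3 mice had received the vehicle. All mice were killed 4 hours after injection and were ovariectomized, on a mixed background with 129/Sv ancestry that goes back to a line carrying a floxed Esr1 (estrogen receptor alpha) gene. Neither age nor the Esr1 genotype of these mice is stated in the sources used here. Each library is 1 mouse, so the error is variation between animals.

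Brain cells make their own cholesterol, because plasma lipoproteins do not cross the blood-brain barrier. Synthesis runs from acetyl-CoA through mevalonate, farnesyl diphosphate and squalene to lanosterol, and a chain of demethylation, isomerisation and reduction steps then turns lanosterol into cholesterol. When membranes of the endoplasmic reticulum hold little sterol, the escort protein Scap carries SREBP to the Golgi for cleavage, and the freed factor turns on most of these enzymes together, whereas Insig proteins hold Scap back when sterol is plentiful. Sterol derivatives in excess activate LXR nuclear receptors, which turn on the exporters Abca1 and Abcg1.

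Libraries held 22311424 to 33302293 counts with EB and 21037303 to 30909554 with vehicle. Estrogen target genes followed the labels: Pgr, the progesterone receptor, was at 213, 190, 230 and 198 CPM (the count of a gene relative to its TMM-normalised library size) in the EB mice, against 80.3, 89.6 and 76.6 CPM in the vehicle mice. Greb1, another estrogen-induced gene, rose 2.74-fold (edgeR, adjusted p = 0.00404). Markers of the dissected region were present in every library, with Fezf1 at 108 to 152 CPM with EB and 129 to 146 CPM with vehicle, although Nr5a1, which defines the nucleus in development, was low at 0.927 to 3.51 CPM with EB and 1.14 to 3.15 CPM with vehicle. Of 7 markers of the region, Nptx2 rose (17.7 ± 2.10 CPM with EB and 7.88 ± 1.101 CPM with vehicle, edgeR adjusted p = 0.00234) and 6 did not pass, of which 3 are added here after their values were seen. Slc17a6, the glutamate transporter of these neurons, was at 633 ± 55.6 CPM with EB and 499.6 ± 61.3 CPM with vehicle, with no overlap (adjusted p = 0.132 by edgeR and 0.0208 by DESeq2). Nkx2-1 was at 54.7 ± 13.7 CPM with EB and 80.8 ± 21.1 CPM with vehicle, and Adcyap1 at 144 ± 18.2 CPM with EB and 170 ± 15.6 CPM with vehicle (edgeR adjusted p = 0.485 and 0.468). The part of such shifts in the sterol gene values was not tested. In bulk tissue, fewer cells of a type and less RNA per cell cannot be told apart.

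Among the sterol genes, Dhcr7 rose 4 hours after EB, 0 fell and the other 28 did not pass the test. Dhcr7 is the 7-dehydrocholesterol reductase, which carries out the last step to cholesterol. With edgeR and an adjusted p under 0.05 (Benjamini-Hochberg, over all genes), that is 1 of 29 members (3.45%), where 0.919% of the 18387 genes tested were called, 0.712% higher and 0.207% lower. DESeq2 called the same 1 member, beside 1.96% of all genes (1.3% higher, 0.665% lower). So did limma-voom, beside 0.816% of all genes (0.625% higher, 0.19% lower). All 29 members passed the filter on low counts. Their median log2 change was 0.015, against −0.008 for all genes tested, and 15 estimates were positive and 14 negative. For 23 of the 29, the 95% interval of the change lay within 1.5-fold in both directions. The exceptions were Dhcr7, Idi1, Fdps, Hsd17b7, Ebp and Insig1.

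**Figure D1:**
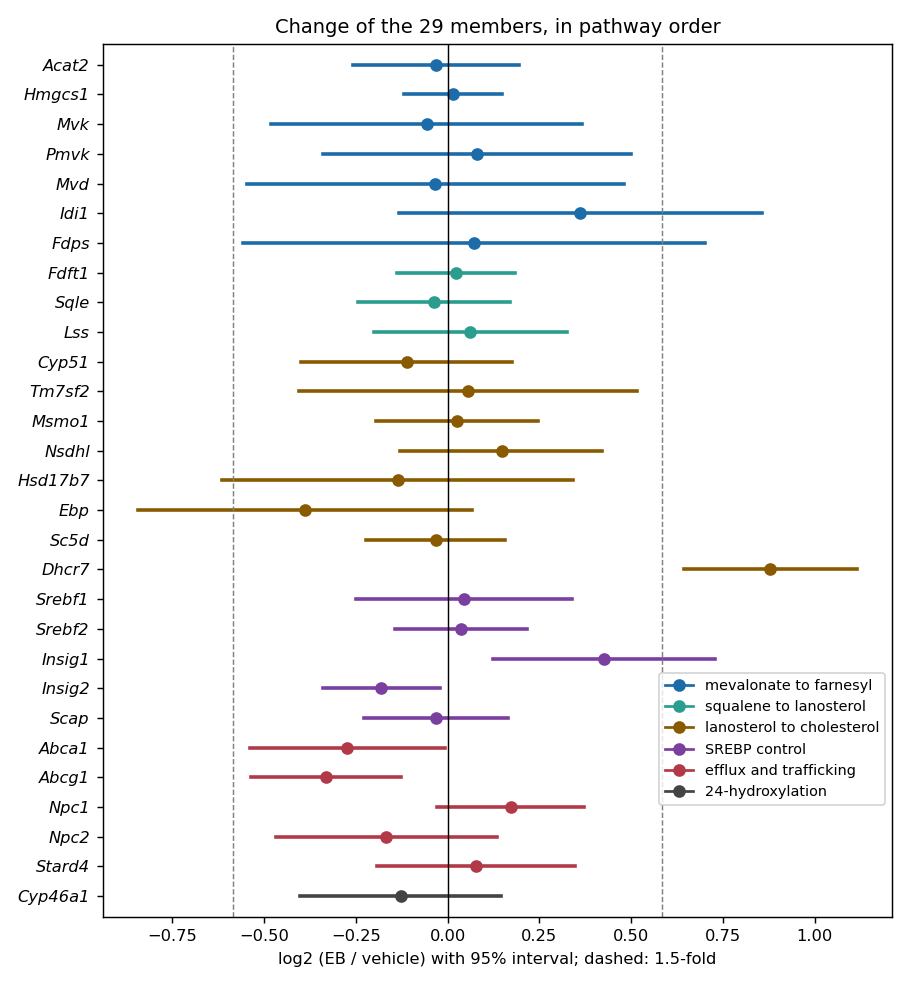
Log2 change with EB over vehicle (points) with its 95% interval (lines) for the 29 members, in pathway order from top to bottom and coloured by role; dashed lines mark a 1.5-fold change. Dhcr7 stands at 0.88 with an interval of 0.64 to 1.11, and the points of the other 28 lie between −0.39 (Ebp) and 0.43 (Insig1).

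Dhcr7 was at 47.7, 42.9, 45.6 and 55.8 CPM in EB mice 1 to 4, against 26.0, 28.0 and 24.2 CPM in vehicle mice 1 to 3. Every EB mouse was above every vehicle mouse, and the lowest EB value was well clear of the highest vehicle value. The means were 48.01 ± 5.58 CPM with EB (SD, n = 4) and 26.1 ± 1.89 CPM with vehicle (SD, n = 3), a 1.84-fold difference with a 95% interval of 1.56 to 2.16. On the log2 scale the change was 0.88 ± 0.11 (SE, edgeR adjusted p = 0.0014), and by p it ranked 28 of 18387 genes. With any 1 mouse left out it stayed between 0.80 and 0.93, with an adjusted p of at most 0.0157. The call rests on 550 to 1459 counts in a library. Loss of this enzyme in humans causes Smith-Lemli-Opitz syndrome, in which 7-dehydrocholesterol accumulates.

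The gene lies on chromosome 7 of GRCm38, from 143823145 to 143848410 on the plus strand. RefSeq gives it 3 start sites, the next 232 bases after the most upstream and the last a further 6815 bases on, and counts per gene do not tell which of them was used. Its neighbour Nadsyn1, an enzyme of NAD synthesis, runs the other way on the minus strand, with 295 bases between the 2 genes, and is named after its values were seen. Nadsyn1 was at 4.64, 4.16, 3.92 and 2.76 CPM with EB, against 2.57, 0.887 and 3.04 CPM with vehicle. EB 4 fell among the vehicle values, and the log2 change of 0.85 ± 0.38 did not pass the test (adjusted p = 0.562). Of the 3617 words of 50 bases in Dhcr7 transcripts, 0 occur in a GENCODE transcript of another gene.

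Promoter windows of 300 bases (250 before the start site and 50 from it on, RefSeq, GRCm38.p6, all read 5′ to 3′ on the plus strand) are shown for the most upstream and most downstream starts of Dhcr7, because it rose, and for Hmgcs1 and Insig1, which hold sterol regulatory element letters and did not pass the test. Capitals mark the sterol regulatory element letters TCACNCCAC or its shorter form CACNCCAC, the NF-Y box CCAAT, the E-box CACGTG and the estrogen response half-site GGTCA, each on either strand.
Dhcr7 upstream start, chr7:143822917-143823216: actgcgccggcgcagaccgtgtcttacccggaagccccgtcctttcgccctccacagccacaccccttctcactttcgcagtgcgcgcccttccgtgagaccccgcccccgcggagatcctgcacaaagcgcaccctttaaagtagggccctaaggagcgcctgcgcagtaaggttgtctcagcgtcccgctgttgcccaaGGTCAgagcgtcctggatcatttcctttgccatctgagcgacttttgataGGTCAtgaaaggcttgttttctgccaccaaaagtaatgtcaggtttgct
Dhcr7 downstream start, chr7:143829964-143830263: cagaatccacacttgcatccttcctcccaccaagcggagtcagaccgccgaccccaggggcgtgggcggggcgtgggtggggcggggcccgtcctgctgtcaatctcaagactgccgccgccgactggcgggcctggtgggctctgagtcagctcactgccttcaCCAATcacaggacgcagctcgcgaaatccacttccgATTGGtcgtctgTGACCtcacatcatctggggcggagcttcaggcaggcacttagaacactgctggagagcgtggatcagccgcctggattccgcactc
Hmgcs1, chr13:119690101-119690400: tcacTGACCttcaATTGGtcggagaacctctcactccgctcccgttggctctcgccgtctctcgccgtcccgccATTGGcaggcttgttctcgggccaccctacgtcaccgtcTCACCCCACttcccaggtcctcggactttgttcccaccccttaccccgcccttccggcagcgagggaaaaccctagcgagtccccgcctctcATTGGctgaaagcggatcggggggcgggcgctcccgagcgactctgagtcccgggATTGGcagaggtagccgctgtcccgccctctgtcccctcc
Insig1, chr5:28071162-28071461: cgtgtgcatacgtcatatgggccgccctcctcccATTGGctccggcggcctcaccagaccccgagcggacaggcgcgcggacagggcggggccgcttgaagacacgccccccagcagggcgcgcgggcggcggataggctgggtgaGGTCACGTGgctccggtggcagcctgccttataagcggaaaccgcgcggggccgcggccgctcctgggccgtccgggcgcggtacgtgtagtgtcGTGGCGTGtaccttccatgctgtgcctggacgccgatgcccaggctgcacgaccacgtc

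The upstream Dhcr7 window holds 2 estrogen half-sites and the downstream one holds 2 NF-Y boxes and 1 half-site, while neither holds the sterol regulatory element letters. The window of the start between them overlaps the upstream one and holds 1 E-box and 1 half-site. That half-site lies in the overlap and is already counted in the upstream window. Hmgcs1 has 1 sterol regulatory element match, 4 NF-Y boxes and 1 half-site. Insig1 has 1 match to the shorter form, 1 NF-Y box, 1 E-box and 1 half-site. In Insig1 the half-site overlaps the E-box. Over all genes, GGTCA is in 40.5% of the 32851 mouse promoter windows, CCAAT in 37.4%, CACGTG in 7.15%, CACNCCAC in 6.24% and TCACNCCAC in 1.24%. A full estrogen response palindrome (GGTCA, any 3 bases, TGACC) is in 0.07% of all windows and in 0 of the 31 windows of the 23 members that matched the table. Of those 31 windows, CCAAT is in 21, GGTCA in 15, CACGTG in 7, CACNCCAC in 3 and TCACNCCAC in 1. A match is a string of letters and not a shown binding site. Because TCACNCCAC is in only 1 of the 31 windows, a window without it does not show that an element is absent.

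Apart from Idi1, the first enzymes, which lead to mevalonate and farnesyl diphosphate, differed by less than the spread between mice. Hmgcs1, the HMG-CoA synthase, was at 247, 243, 263 and 260 CPM with EB, against 264, 249 and 239 CPM with vehicle. The groups overlapped fully, and the log2 change was 0.015 with an interval of −0.12 to 0.15, the narrowest of the list. Acat2, the cytosolic thiolase that starts the pathway, was at 27.0, 27.6, 24.9 and 24.9 CPM with EB, against 27.8, 27.9 and 24.4 CPM with vehicle (log2 −0.032 ± 0.10, edgeR adjusted p = 0.974). In 40.65% of its words Acat2 matches Acat3, its near copy, so the division of reads between them is uncertain. The kinases Mvk and Pmvk, the decarboxylase Mvd, the isomerase Idi1 and the farnesyl diphosphate synthase Fdps had changes between −0.057 (Mvk) and 0.36 (Idi1), and of the 7 genes of this stretch 0 were called by any of the 3 tools and 0 had an unadjusted p under 0.05. Idi1 was at 7.29 to 10.3 CPM with EB and 4.40 to 8.59 CPM with vehicle, lowest in vehicle 2. Its means were 8.33 ± 1.37 CPM with EB and 6.50 ± 2.09 CPM with vehicle (SD), and the groups overlapped. Fdps had only 45 to 104 counts in a library, and 64.07% of its words occur in other transcripts, mostly those of the read-through model Gm43738, so its level is uncertain too.

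From squalene to lanosterol, 0 of 3 enzymes passed with any of the 3 tools, and 0 had an unadjusted p under 0.05. Sqle, the squalene epoxidase and a rate-limiting enzyme of the pathway, was at 91.7, 84.4, 72.3 and 91.5 CPM with EB, against 82.5, 96.6 and 82.5 CPM with vehicle. Fdft1, the squalene synthase, was at 97.0, 83.8, 91.4 and 89.4 CPM with EB, against 93.0, 89.3 and 84.8 CPM with vehicle. The groups overlapped for both genes. Log2 changes were −0.038 ± 0.096 for Sqle, 0.022 ± 0.074 for Fdft1 and 0.062 ± 0.12 for Lss, the lanosterol synthase. Fdft1 shares 774 exon bases with Ctsb on the opposite strand, and whether counting used strand is not stated.

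Between lanosterol and cholesterol, Dhcr7 was the 1 of 8 enzymes that passed the test. Cyp51, the lanosterol demethylase, was at 85.7, 69.1, 54.1 and 74.6 CPM with EB, against 72.6, 87.1 and 70.0 CPM with vehicle (log2 −0.11 ± 0.13, edgeR adjusted p = 0.915). EB 3 was the lowest mouse and the rest of both groups overlapped. The sterol reductase Tm7sf2, the methyl oxidase Msmo1, the dehydrogenase Nsdhl, the keto-reductase Hsd17b7, the isomerase Ebp and the desaturase Sc5d had changes between −0.39 (Ebp) and 0.15 (Nsdhl), and of these, too, 0 passed with any of the 3 tools and 0 had an unadjusted p under 0.05. Ebp was at 5.10 to 6.38 CPM with EB and 5.35 to 9.16 CPM with vehicle, with vehicle 2 low and the other vehicle mice high. Sc5d, which makes the substrate of Dhcr7 and is given by mouse after its values were seen, was at 59.9, 55.3, 49.8 and 59.7 CPM with EB, against 60.4, 54.7 and 57.2 CPM with vehicle.

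Set against Sc5d in the same library, Dhcr7 had 0.796, 0.776, 0.916 and 0.935 counts for each Sc5d count with EB, against 0.430, 0.512 and 0.423 with vehicle. Set against the other 17 synthesis enzymes together, its ratio was 0.0611, 0.0589, 0.0649 and 0.0716 with EB and 0.0339, 0.0368 and 0.0337 with vehicle. Both ratios separate the groups without using a scaling factor between libraries. Dhcr7 was singled out for its change, so the ratios are a description with no test.

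**Figure D2:**
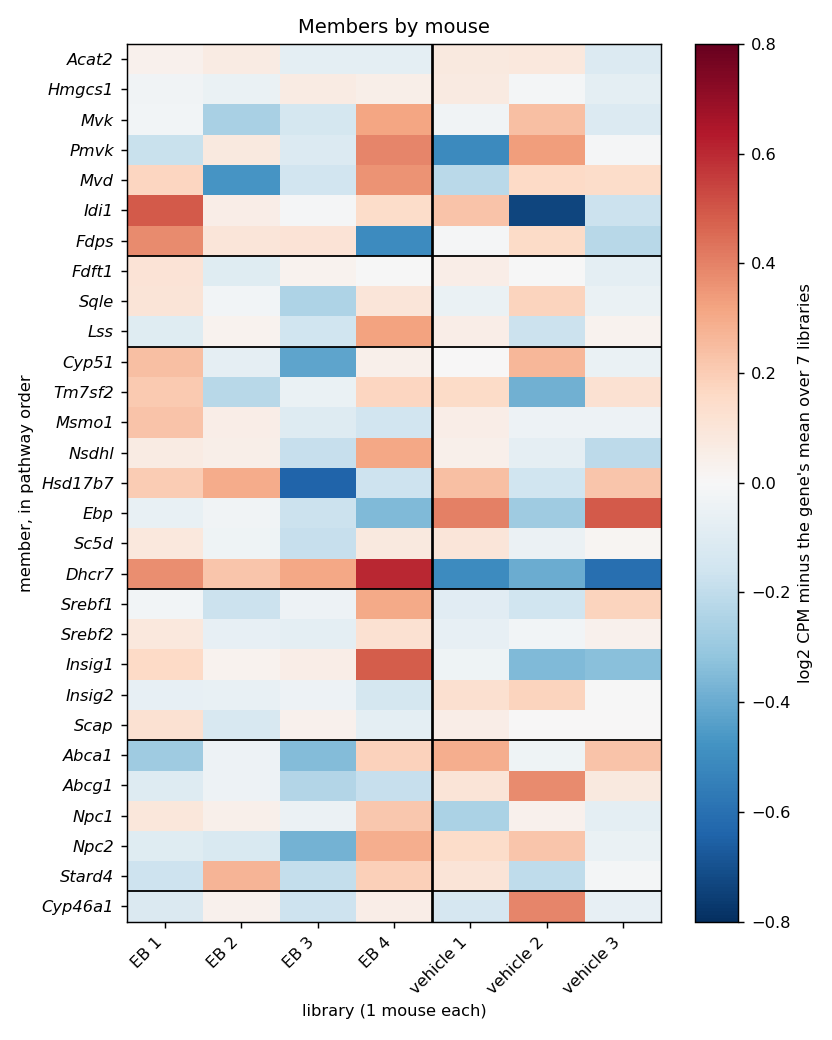
Log2 CPM of each member (rows, in pathway order) in each mouse (columns, EB left of the thick line and vehicle right of it), minus the gene's own mean over the 7 libraries; red is above that mean and blue below. Dhcr7 is above its mean in all 4 EB mice and below it in all 3 vehicle mice, and in EB 3 only 3 of the other 17 synthesis enzymes are above theirs.

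The other enzymes varied between mice of the same group. In EB 1 to 4, 12, 8, 3 and 11 of the 17 other enzymes were above their own mean over the 7 libraries, against 12, 7 and 6 in vehicle 1 to 3. EB 3 stood lowest, with a median deviation of −0.14 log2 units, and EB 1 highest at 0.10. The deviations of Dhcr7 were 0.372, 0.221, 0.309 and 0.601 in EB 1 to 4, and −0.502, −0.395 and −0.605 in vehicle 1 to 3. Their sign follows from the choice of Dhcr7 for its change, so only the order within a group is informative. That order matched in part. With EB, Dhcr7 was highest in EB 4 and lowest in EB 2, while the other enzymes were highest in EB 1 and lowest in EB 3. Among vehicle mice, vehicle 3 was lowest for both.

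Among the regulators, the SREBP genes themselves differed by less than the spread between mice. Srebf2, which encodes the SREBP that drives cholesterol synthesis, was at 57.9, 52.2, 51.6 and 59.5 CPM with EB, against 52.2, 53.7 and 55.9 CPM with vehicle (log2 0.036, interval −0.14 to 0.22). Srebf1, whose products drive mainly fatty acid synthesis, was at 23.3, 20.98, 22.96 and 29.2 CPM with EB, against 22.2, 21.2 and 26.7 CPM with vehicle (log2 0.045 ± 0.14). Scap, the SREBP escort, had a log2 change of −0.032 ± 0.091. These are transcript levels and do not measure SREBP cleavage.

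The 2 Insig genes had estimates of opposite sign, and neither passed the test. Insig1, which holds Scap in the endoplasmic reticulum and is itself a SREBP target, was at 25.9, 23.6, 24.1 and 32.5 CPM with EB, against 22.7, 18.1 and 18.4 CPM with vehicle. All EB mice were above all vehicle mice, but vehicle 1 came close to EB 2. The log2 change was 0.43 ± 0.14 (edgeR adjusted p = 0.296, DESeq2 adjusted p = 0.124), and 0.32 to 0.53 with any 1 mouse left out. With the endothelial markers as a covariate, an alternative chosen after seeing the data, it was 0.62 and passed (edgeR adjusted p = 0.0342). That alternative called 220 of all genes, against 169 without the covariate. Insig2, named after its values were seen, was at 69.6, 70.0, 70.9 and 66.3 CPM with EB, against 79.8, 82.6 and 72.9 CPM with vehicle, with no overlap but little room between them (log2 −0.18 ± 0.074, edgeR adjusted p = 0.491). In each library Insig1 had 0.372, 0.337, 0.340 and 0.490 counts per Insig2 count with EB, against 0.284, 0.220 and 0.252 with vehicle.

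**Figure D3:**
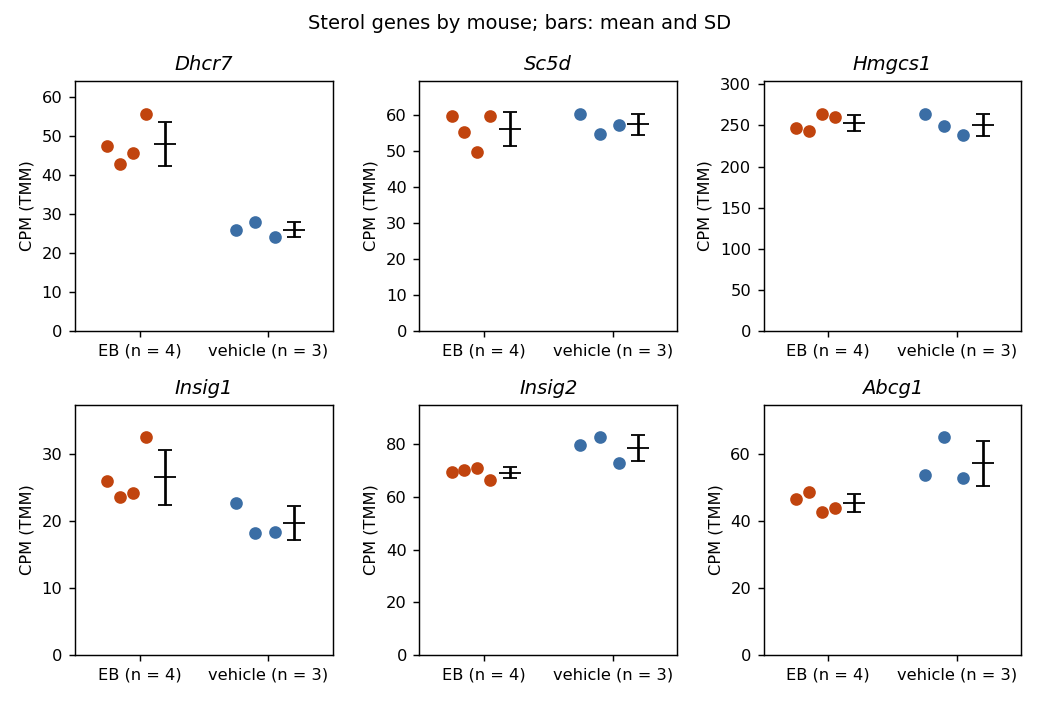
TMM-normalised CPM of 6 members in each mouse (points), EB left and vehicle right, with the mean and SD of each group (bars). Dhcr7 separates the groups, Sc5d and Hmgcs1 do not, and Insig1, Insig2 and Abcg1 separate them by smaller distances without passing the test over all genes.

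The cholesterol exporters had negative estimates that did not pass. Abca1, which loads cholesterol onto apolipoproteins, was at 64.2, 75.9, 61.5 and 88.8 CPM with EB, against 95.5, 76.2 and 91.5 CPM with vehicle. EB 4 lay above vehicle 2, so the groups overlapped (log2 −0.27 ± 0.12, edgeR adjusted p = 0.573). Abcg1, its partner in efflux and also named after its values were seen, was at 46.6, 48.7, 42.6 and 44.0 CPM with EB, against 53.8, 64.9 and 52.8 CPM with vehicle. The groups were apart for Abcg1, with vehicle 2 the highest (log2 −0.33 ± 0.094, edgeR adjusted p = 0.192, DESeq2 adjusted p = 0.0766). Endothelial markers, summed over 11 genes, stood at 91.9 to 122 CPM with EB and 109 to 159 CPM with vehicle (two-sided exact permutation p = 0.0857, 0.428 adjusted over 10 marker lists), with 9 of 11 markers lower and 0 at zero in every library. Microglial markers stood at 162 to 183 CPM with EB and 187 to 194 CPM with vehicle (exact p = 0.0571, adjusted 0.428). The groups were apart for this sum, and 7 of 9 markers were lower. Both cell types express the exporters. With the endothelial markers as a covariate, an alternative chosen after seeing the data, the log2 change was −0.092 for Abca1 and −0.41 for Abcg1 (edgeR adjusted p = 0.793 and 0.0798). The covariates planned beforehand were astrocyte and oligodendrocyte markers. With astrocyte markers the change was −0.15 for Abca1 and −0.36 for Abcg1, and with oligodendrocyte markers −0.34 and −0.33. Microglial markers were not used as a covariate, and the part of any cell type in these values was not tested.

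Npc1 and Npc2, which pass cholesterol out of lysosomes, and Stard4, a sterol carrier in the cytosol, had log2 changes of 0.17 ± 0.093, −0.17 ± 0.14 and 0.077 ± 0.12. Cyp46a1, the neuronal hydroxylase whose product leaves the brain, was at 32.1, 35.5, 31.0 and 36.1 CPM with EB, against 31.7, 45.5 and 33.2 CPM with vehicle. Vehicle 2 alone was high, and the log2 change was −0.13 ± 0.13 (edgeR adjusted p = 0.879).

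Over all members, 5 of 29 had an unadjusted p under 0.05 (17.2%), where 8.54% of all genes did, and they were Dhcr7, Insig1, Insig2, Abca1 and Abcg1. Groups did not overlap for 4 of 29 (13.8%), 2 higher and 2 lower, where 9.1% of all genes had no overlap (5.11% higher, 3.99% lower).

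**Figure D4:**
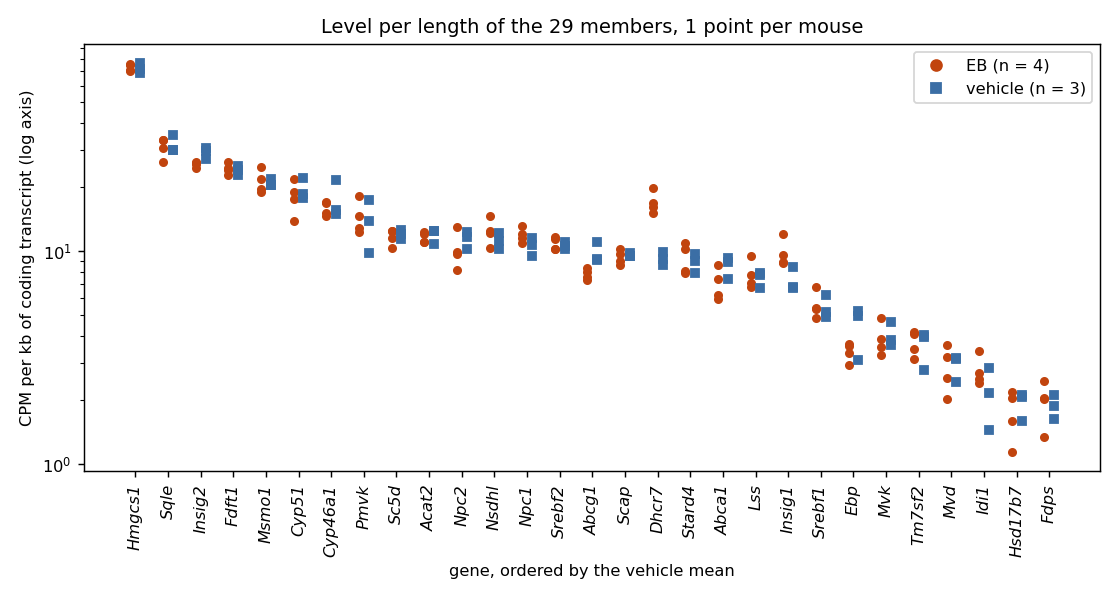
Level of each member in each mouse as CPM per kb of its longest coding transcript (log axis), EB circles left of vehicle squares, with genes ordered by the vehicle mean. Hmgcs1 leads at 73.1 with EB and 72.3 with vehicle, and Dhcr7 takes place 7 of 29 by its EB mean and place 17 by its vehicle mean.

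Per kb of the longest coding transcript, Hmgcs1 was the most abundant member, at 73.1 ± 2.86 CPM per kb with EB (SD, n = 4) and 72.3 ± 3.72 CPM per kb with vehicle (SD, n = 3). Sqle followed at 30.8 ± 3.31 with EB and 31.6 ± 2.96 with vehicle. Insig2 came next, at 25.7 ± 0.75 with EB and 29.1 ± 1.84 with vehicle. Sqle and Insig2 do not differ beyond their spread in vehicle mice. Dhcr7 was at 17.1 ± 1.98 CPM per kb with EB, place 7 of 29, and 9.26 ± 0.672 with vehicle, place 17. In vehicle mice its neighbours in the order, Scap (9.60 ± 0.176) and Stard4 (8.85 ± 0.926), lay within its spread. In EB mice it lay between Cyp51 and Cyp46a1 (15.9 ± 1.19), again within the spread. At the low end, Mvd, Idi1, Hsd17b7 and Fdps were under 3 CPM per kb in both groups, Idi1 and Fdps with shared sequence as a limit. The transcripts used in the authors' counting are not stated, so the order between genes is approximate, while changes within a gene do not depend on length.

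Other genes of sterol and lipid metabolism did not pass the test either. Of 61 further genes in 4 lists, 60 were tested and edgeR called 0, as did DESeq2 and limma-voom, beside 0.919% of all genes called by edgeR. An unadjusted p under 0.05 was found for 8 of 60 (13.3%), 5 higher and 3 lower, beside 8.54% of all genes. The 3 lower ones, named after their values were seen, were the progesterone receptor membrane component Pgrmc1, the LXR gene Nr1h2 and the lysosomal lipase Lipa, with log2 changes of −0.19 ± 0.064, −0.54 ± 0.22 and −0.25 ± 0.11 (edgeR adjusted p = 0.298, 0.491 and 0.558) and no overlap between groups. In SREBP processing and turnover, 0 of 11 were called and the smallest p was that of Fbxw7, which marks nuclear SREBP for degradation. It was at 214, 200, 219 and 191 CPM with EB, against 156, 184 and 174 CPM with vehicle (log2 0.27 ± 0.074, edgeR adjusted p = 0.179), with the groups apart. In fatty acid synthesis, 0 of 14 were called, with Acss2, an acetyl-CoA synthetase, at a log2 change of 0.47 ± 0.20 (adjusted p = 0.525). In the isoprenoid branch, 0 of 11 were called, with Pdss2, which builds the coenzyme Q tail, at 0.42 ± 0.16 (adjusted p = 0.452). In sterol transport and oxysterol metabolism, 0 of 24 were called, with the lipoprotein receptor Vldlr at 0.29 ± 0.085 (158 ± 15.8 CPM with EB and 129 ± 8.94 CPM with vehicle, adjusted p = 0.226). Median log2 changes of the 4 lists were −0.067, −0.051, 0.085 and −0.020, beside −0.008 for all genes. The gene that failed the filter was Cyp11a1, with 3 to 8 counts in a library.

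Myelin-forming oligodendrocytes and astrocytes are the main makers of cholesterol in brain, so their markers are given beside the enzymes. Oligodendrocyte markers, 12 genes, summed to 911 to 1102 CPM with EB and 1041 to 1138 CPM with vehicle (two-sided exact permutation p = 0.343), with 10 of 12 lower and 0 called. Astrocyte markers, 10 genes, summed to 5378 to 6826 CPM with EB and 6194 to 6900 CPM with vehicle (exact p = 0.429), with 9 of 10 lower. With the oligodendrocyte or the astrocyte markers as a covariate, Dhcr7 changed by 0.85 and 0.92 on the log2 scale (edgeR adjusted p = 0.006 and 0.000978). Neuron markers summed to 8464 to 9630 CPM with EB and 8598 to 9164 CPM with vehicle (exact p = 0.486), with 4 of 10 lower. Oligodendrocyte precursor markers summed to 171 to 204 CPM with EB and 200 to 213 CPM with vehicle (exact p = 0.171), with 5 of 8 lower. Of all 18387 genes tested, 9498 had a negative estimate. Mural and fibroblast markers were highest in vehicle 1, at 394 CPM, and in EB 4, at 289 CPM. Their sum was 204 ± 60.6 CPM with EB and 251 ± 130 CPM with vehicle (exact p = 0.629), with 11 of 11 markers lower and 0 called. Without those 2 libraries, an alternative chosen after seeing the data, Dhcr7 changed by 0.80 (adjusted p = 0.0118) and stayed the 1 member called.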

How the data were processed

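Per the labels' protocols, 15 ng of RNA from each of 7 mice went into a library (NuGEN Trio kit). The deposited files hold whole-number counts per gene. The authors aligned reads with HISAT2 to mm10, counted them with HTSeq and used DESeq2, per the submitters' processing notes. No version, annotation or strand setting is given in the sources used here. Reads shared by overlapping or near-identical genes can therefore be lost or misplaced.

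Counts were filtered with filterByExpr (minimum count 10), leaving 18387 genes, TMM-scaled (factors 0.859 to 1.09) and tested with edgeR 4.0.16 (quasi-likelihood, robust, groups only), with Benjamini-Hochberg adjustment over all genes and a threshold of 0.05. DESeq2 1.42.0, limma 3.58.1 (voom), other scalings, other filters, marker covariates and leaving out each mouse were alternatives. R 4.3.3 and Python 3.11.15 were used, and the fits were tested on simulated data. In 3 simulations, 200 genes drawn at random from those tested were changed. With edgeR, 4% of 1.25-fold, 36% of 1.5-fold, 56% of 2-fold and 83.3% of 4-fold changes were recovered. A gene that did not pass can therefore still have changed. False calls made up 5.61% of those by edgeR, 7.09% by limma-voom and 18.7% by DESeq2. The biological coefficient of variation was 22.3%. Every pair of replicates differed by more than sampling noise. Marker sums were compared by a two-sided exact permutation test over 35 splits, whose smallest p is 0.0286. After adjustment over 10 marker lists, 1 list alone could therefore not pass. Gene positions and words of 50 bases came from GENCODE M21 (GRCm38).

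The members and gene lists were chosen with earlier results of these data known. Every member called by any tool is given by mouse, with Acat2, Fdft1, Cyp51, Srebf1, Abca1, Cyp46a1, Hmgcs1, Sqle, Srebf2 and Insig1, and the rest by range. Of the other lists, called genes or else the gene of smallest p are named. Further genes are said to have been named after their values were seen.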

Additional observations from a re-analysis of the deposited data

Results flagged for a closer look

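Of 40 groups of 4 EB mice examined, 1 held a mouse far from the others, where chance alone marks about 1 group in 20. The pituitary marker sum was 2.84, 4.13, 3.83 and 29.2 CPM in EB mice 1 to 4, against 12.5, 8.20 and 14.8 CPM in vehicle mice 1 to 3. EB 4 was the high mouse. In that mouse Dhcr7 was also at its highest, and without EB 4 the Dhcr7 change was 0.80 on the log2 scale (edgeR adjusted p = 0.00302).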

How the results depend on the processing

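Dhcr7 was called under each of 19 alternatives, with log2 changes of 0.80 to 0.93. The number of all genes called was 169, and 351 (232 higher, 119 lower) with DESeq2. Leaving out 1 mouse gave 94 to 159, with 94 without vehicle 3 and 103 without EB 1. With the endothelial markers as a covariate, chosen after seeing the data, 220 of all genes were called (131 higher, 89 lower). Among them were 2 members, the second being Insig1 (0.62), and 1 gene of sterol transport, Gramd1b, which was lower. No paired analysis was possible because each mouse has its own number in the labels, with none shared between groups, and the numbers 1 to 4 used here only name mice in deposit order.

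Of 551 member values under alternatives, 502 kept direction and side of the threshold and 48 changed sign, in 18 members whose change was at most 0.136 in size; the cause was not tested. With library totals only, Acat2 was 0.010, Sc5d 0.010 and Scap 0.0061. With oligodendrocyte markers as a covariate, Pmvk was −0.043, Lss −0.0031 and Srebf1 −0.024. With astrocyte markers, Mvd was 0.054, Fdps −0.092 and Sc5d 0.022. With endothelial markers, Fdps was −0.13 and Sc5d 0.039. Without vehicle 1 and EB 4, also chosen after seeing the data, Acat2 was 0.020, Pmvk −0.24, Lss −0.0030, Srebf1 −0.093, Srebf2 −0.024 and Scap 0.0054.

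With 1 mouse left out, log2 changes ran from −0.020 to 0.051 for Hmgcs1, −0.18 to 0.055 for Mvk, −0.12 to 0.30 for Pmvk, −0.17 to 0.098 for Mvd, −0.054 to 0.21 for Fdps and −0.014 to 0.054 for Fdft1. They ran from −0.080 to 0.042 for Sqle, −0.045 to 0.12 for Lss, −0.10 to 0.15 for Tm7sf2, −0.053 to 0.078 for Msmo1, −0.27 to 0.019 for Hsd17b7 and −0.067 to 0.021 for Sc5d. For regulators and transport they ran from −0.059 to 0.15 for Srebf1, −0.00050 to 0.067 for Srebf2, −0.078 to 0.0026 for Scap, −0.013 to 0.15 for Stard4 and −0.23 to 0.054 for Cyp46a1. The EB minus vehicle difference in marker sums ran from −103 to 23.9 CPM for mural and fibroblast, −7.64 to 2.05 CPM for tanycyte and ependymal and −8.21 to 0.583 CPM for pituitary markers. The sterol regulatory element letters were in 1 member promoter window, and in 3 without the first base. Low counts limit Fdps, Mvd and Tm7sf2 most, all under 200 counts in a library. Tm7sf2 also shares 532 exon bases with Vps51 on the same strand, and 19.48% of its words, so its level is uncertain.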
